A study of Capra hircus with 6 samples.

Results

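Milk carries proteins that protect the gland and the suckling young. LTF (lactoferrin) binds iron and withholds it from microbes, and LPO (lactoperoxidase) is a haem enzyme that makes antimicrobial oxidants. PIGR (the polymeric immunoglobulin receptor) sits on the basal side of epithelial cells, binds polymeric antibody and carries it through the cell into milk. JCHAIN (the joining chain) is made by plasma cells and links antibody units into the polymers that PIGR recognises. These 4 genes were taken by their probes out of 8379 oligonucleotide probes on the array, and each had 1 probe (Bt00007015 for LTF, 1001864580 for LPO, Bt00008269 for PIGR and Bt00001486 for JCHAIN). All 4 were among the 6378 probes kept after a filter on dim signals. The wording of that filter allows 12 readings, of which LTF, LPO and PIGR passed 12 and JCHAIN 6.

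The tissue was lactating mammary gland of 6 goats, which all received a control diet without restriction. Some goats were labelled Low and the others High for their genotype at CSN1S1, which encodes the casein alpha-s1. Each of 3 pairs held 1 Low and 1 High goat, and each pair was hybridised to 2 two-colour arrays with the dyes swapped. The labels do not give the alleles behind the genotypes, the goats' age or the stage of lactation. Every ratio below is a log2 value with Low on top, so a positive one means higher in Low, and the replicate is the pair (n = 3). The labels name different goats in each pair.

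CSN1S1 itself, the check of the labels, was at -2.43 ± 0.21 (SD, n = 3 pairs) and was lower in Low on 6 of 6 arrays, with 3 of its 12 spots marked saturated. Of 12 luminal epithelial markers 9 were measured. Spots carrying neither an empty nor a manual flag made up 74.1% to 82.2% of the probe spots of an array. The median standard error of a ratio over all probes was 0.0502. In bulk tissue, fewer cells of a type and less RNA per cell cannot be told apart.

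None of the 4 genes differed between Low and High goats beyond the spread of the pairs. With limma, 0 of 4 passed an adjusted p of 0.05 and 0 of 4 had an unadjusted p below 0.05. Of the 6378 probes kept, 6 passed (0.0941%) and 344 had an unadjusted p below 0.05. The lowest unadjusted p among the 4 was 0.0623 (JCHAIN), and the adjusted p lay between 0.896 and 0.967. The smallest two-sided p that exact permutation of the signs of 3 pairs allows is 0.25. What set the 4 genes apart from each other was how far the pairs diverged. LTF ratios varied widely between pairs, LPO ratios moderately and PIGR ratios hardly at all, while the JCHAIN signal was too close to background for its spread to be ranked beside them.

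LTF, the iron-binding protein, had ratios of 1.07 in pair 1, 0.29 in pair 2 and -0.30 in pair 3. The Low goat thus gave 2.10 times the High goat's signal in pair 1 and 0.812 times in pair 3. On single arrays the ratio was 0.56, 0.05 and -0.70 in pairs 1, 2 and 3 with Low in Cy5. With Low in Cy3 it was 1.58, 0.53 and 0.10. The 3 pairs came in the same order in both dye orientations, with a range of 1.26 with Low in Cy5 and of 1.48 with Low in Cy3. The mean over pairs was 0.35 ± 0.69 (SD, n = 3), with a 95% interval from -0.22 to 0.93.

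**Figure D1:**
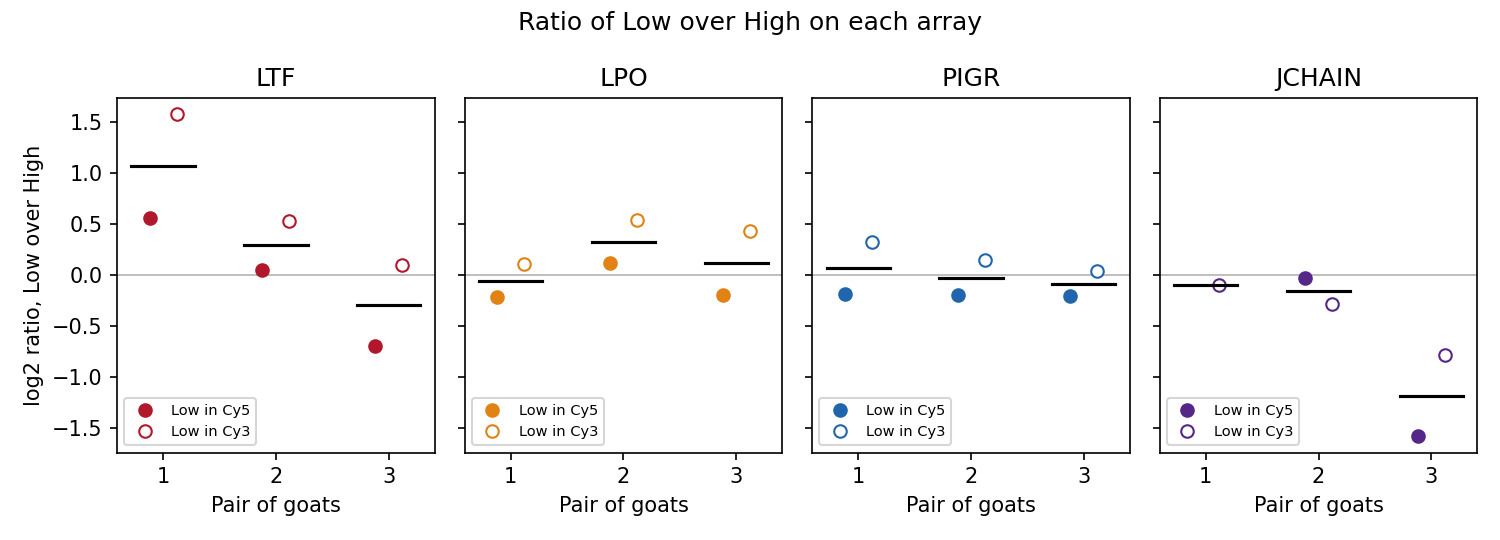
Log2 ratio of Low over High (y axis) in the 3 pairs of goats (x axis) for each gene. Filled points are arrays with Low in Cy5, open points arrays with Low in Cy3, and bars the pair means. LTF runs from 1.07 in pair 1 to -0.30 in pair 3, PIGR stays within 0.09 of 0 as a pair mean, and the JCHAIN ratio of pair 3 lies at -1.18, with Low not above background.

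The pairs were then compared with each other against the spread between arrays, by a moderated F-test in limma with a mean per pair and a common dye term. This error is technical, so the test speaks of these goats only. It called 12 of 6224 probes (0.193%), and LTF was the only one of the 4 genes called (F = 46.1, adjusted p = 0.0100). The LTF ratio of pair 1 exceeded that of pair 2 by 0.78 (95% interval 0.46 to 1.10) and that of pair 3 by 1.37 (1.05 to 1.69). Pair 2 exceeded pair 3 by 0.59 (0.27 to 0.91). The range of the 3 pair ratios of LTF was 1.37, the rank 12 among all probes kept, against a median range of 0.155. The call was lost in 9 of 31 alternative settings, among them the authors' deposited ratios (range 1.42, limma adjusted p = 0.0501) and loess within each sub-grid (1.35, limma adjusted p = 0.0527). It was also lost without pair 1 (range 0.59, limma adjusted p = 0.0649) or pair 3 (0.78, limma adjusted p = 0.183), while without pair 2 it held.

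The probes numbered beside LTF also diverged between the pairs, and they are named here after their values were seen. Of the 5 numbers from Bt00007014 to Bt00007018, 4 probes were kept, and all 4 were among the 12 called. Bt00007014 is SPP1 (osteopontin, a secreted phosphoprotein of milk), with ratios of 0.14, 1.41 and -0.97 in pairs 1, 2 and 3 (limma adjusted p = 1.86e-04). Bt00007016, which has no gene symbol, was at 0.51, 0.95 and -0.66 (limma adjusted p = 0.00141). Bt00007018, which has several symbols and is not named, was at 1.15, 0.19 and -0.02 (limma adjusted p = 0.00620). These probes lie in different sub-grids of the array but at the same place within them. Pair 3 was the lowest in all 4 of these probes, while the highest was pair 1 for LTF and Bt00007018 and pair 2 for SPP1 and Bt00007016. Probes numbered 2 before LTF (BTNL9, range 0.160) and 4 after it (range 0.353) were not called. On the slide itself the kept probe directly beside LTF, NFE2L1 (a stress-response transcription factor), had ratios of 0.11, -0.09 and -0.14. BTNL9 lies at that place too and was not called. The part of probe numbering in the LTF result was not tested, nor was whether the LTF spots report LTF alone.

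**Figure D2:**
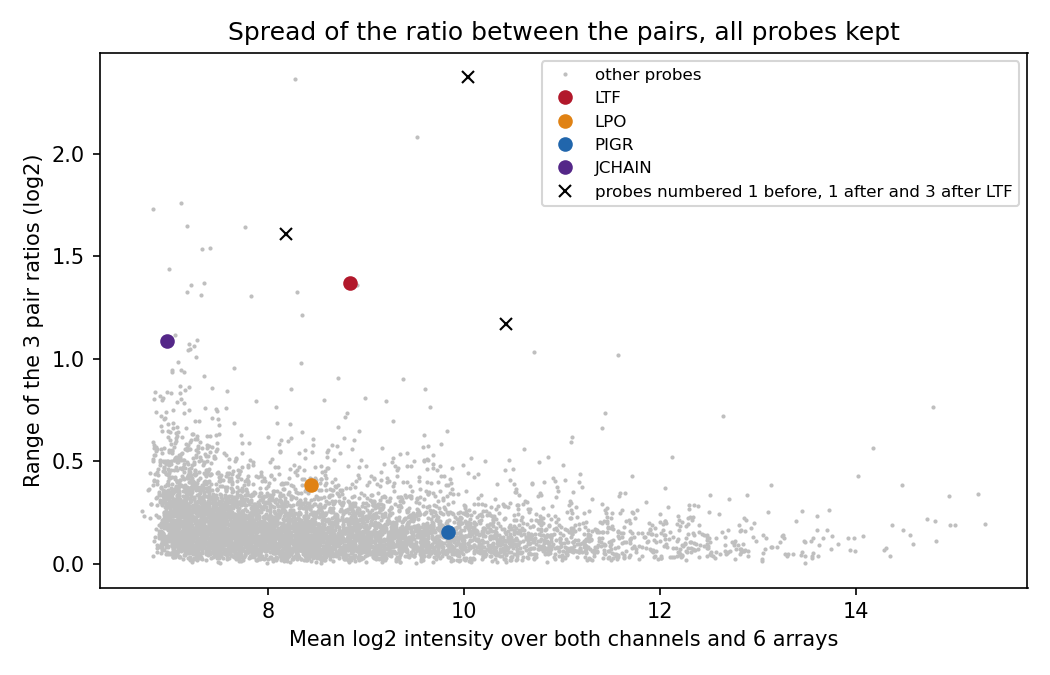
Range of the 3 pair ratios (y axis, log2) against mean log2 intensity (x axis) for all probes kept. LTF (range 1.37) and JCHAIN (1.09, with the Low goat of pair 3 at background) lie above nearly all probes of their intensity, LPO (0.382) and PIGR (0.154) lie within the cloud, and crosses mark the 3 called probes numbered beside LTF, with ranges from 1.17 to 2.37.

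Levels of LTF were also read goat by goat. They are normalized log2 intensities per channel, averaged over a goat's 2 arrays, which hold both dyes. LTF was at 9.42, 8.42 and 9.14 in the Low goats of pairs 1, 2 and 3, against 8.35, 8.13 and 9.44 in the High goats. The groups overlapped. By these means, only the Low goat was high in pair 1, both goats were high in pair 3, and both were low in pair 2. The 2 arrays of a goat could differ by more than neighbouring goats did. The Low goat of pair 1 gave 8.52 in Cy5 and 10.3 in Cy3, whereas the High goat of pair 3 gave 9.39 in Cy5 and 9.49 in Cy3. In order from the top, the High goat of pair 3, the Low goat of pair 1 and the Low goat of pair 3 did not differ beyond that spread. Nor did the 3 lower goats. The Low goat of pair 1 was not set apart from these lower goats beyond that spread either. Its Cy5 value lay below the 8.74 of the High goat of pair 1 in Cy5. It also lay below the 8.79 of the Low goat of pair 2 in Cy3. Within each array of pair 1, Low was above High. Net signals, the spot minus its local background, gave a like picture, at 729, 209 and 631 units in Low and 237, 167 and 778 units in High. The SD between goats was 0.51 in Low and 0.70 in High (n = 3 each), and the SD in High was above that of 96.8% of probes kept.

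**Figure D3:**
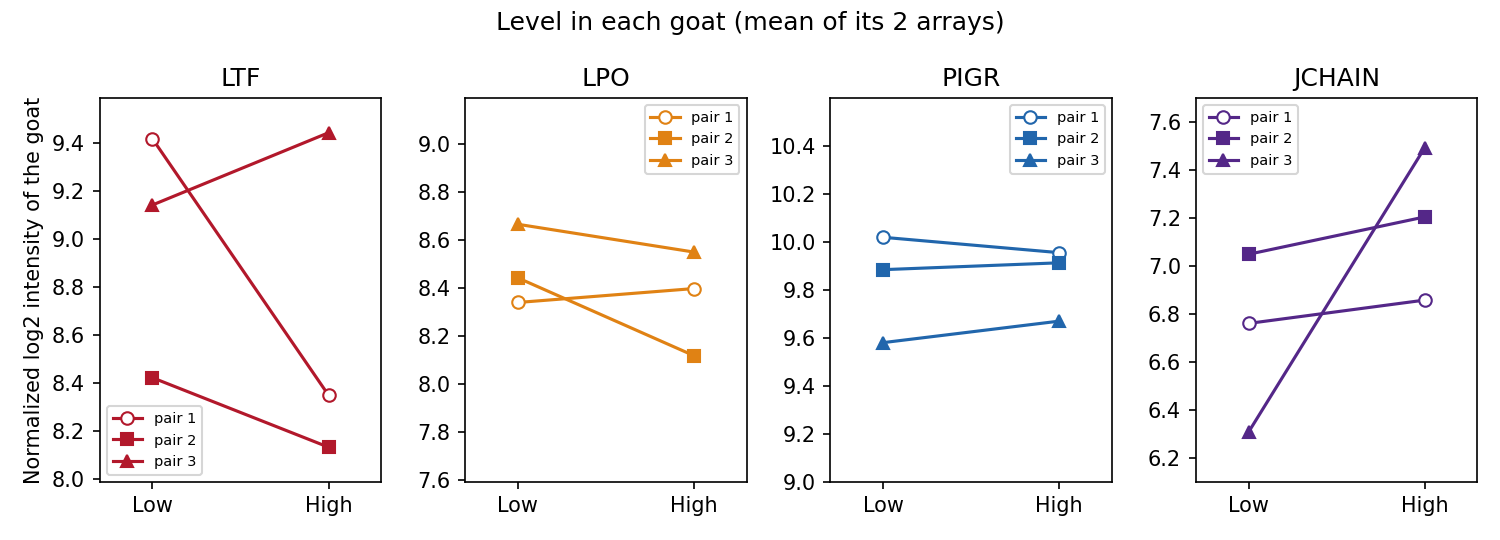
Normalized log2 intensity (y axis) of each gene in the Low and the High goat (x axis), averaged over the goat's 2 arrays, with lines joining the goats of a pair. Each panel spans the same number of log2 units, but levels of different probes cannot be compared. The highest LTF means are those of the Low goat of pair 1 (9.42) and of both goats of pair 3 (9.14 and 9.44). JCHAIN is lowest in the Low goat of pair 3 (6.31).

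LPO, the peroxidase, had ratios of -0.06 in pair 1, 0.32 in pair 2 and 0.12 in pair 3. On single arrays these were -0.22, 0.11 and -0.20 with Low in Cy5, and 0.11, 0.53 and 0.43 with Low in Cy3. The mean was 0.13 ± 0.19 (SD, n = 3), with a 95% interval from -0.06 to 0.32. Pair 2 had the highest ratio in both orientations, and the ratio of pair 1 lay 0.38 below it (95% interval of the difference -0.66 to -0.10). The F-test between pairs did not pass over all probes (limma adjusted p = 0.631), and the LPO range of 0.382 was above that of 91.3% of probes. Goat levels were 8.34, 8.44 and 8.67 in Low and 8.40, 8.12 and 8.55 in High, so the groups overlapped. The goats of pair 3 had the 2 highest LPO levels.

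PIGR, the antibody carrier, had the smallest range of pair ratios of the 4 genes. Its ratios were 0.06, -0.03 and -0.09 in pairs 1, 2 and 3, with a mean of -0.02 ± 0.08 (SD, n = 3). The 95% interval of the mean ran from -0.14 to 0.10, or from 0.908 to 1.07 as a fold of Low over High. The range over pairs was 0.154, close to the median of all probes, and the F-test gave a limma adjusted p of 0.978. With Low in Cy5 the 3 arrays were at -0.19, -0.20 and -0.21, and with Low in Cy3 at 0.32, 0.14 and 0.03. The sign on a single array thus followed the dye and not the pair. Goat levels were 10.02, 9.88 and 9.58 in Low and 9.95, 9.91 and 9.67 in High. Within each pair the goats lay within 0.09 of each other, and the pair 3 goats were the lowest of each genotype. The SD between Low goats was 0.22 for PIGR and 0.17 for LPO, so goat levels of PIGR were not the steadier ones.

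JCHAIN, the antibody-linking chain, gave the dimmest signal of the 4 genes. The ratios were -0.10 in pair 1, -0.16 in pair 2 and -1.18 in pair 3, with a mean of -0.48 ± 0.61 (SD, n = 3; 95% interval -0.99 to 0.03). Ratios had 1 sign in all 3 pairs for 26.2% of all probes kept and were below 0 in all 3 for 13.5%. The probe was kept through its High signal alone, so the sign of its ratios supports nothing. The pair 1 value rests on 1 spot of the array with Low in Cy3, because the other 3 spots were flagged empty, so dye does not cancel there. With all spots kept the ratios were -0.03, -0.16 and -1.06. A signal more than 2 background SDs over the background mean was seen on 2 of 12 spots in Low and on 6 in High. These lay on 1 of 6 arrays in Low and on 4 of 6 in High, and the filter was not passed through the Low channel. The probe did not pass it where both spots had to be above background. Mean net signals were 22.9, 39.5 and 13.1 units in the Low goats and 20.2, 58.4 and 85.8 units in the High goats of pairs 1, 2 and 3, so in pair 1 the net signal was slightly higher in Low. Blank and empty control spots had a median net signal of 5.75 units in Low and 7.94 units in High, and a 95th percentile of 16.8 and 19.5 units in the same channels.

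The lowest JCHAIN ratios were those of pair 3. On its arrays the ratio was -1.59 with Low in Cy5 and -0.78 with Low in Cy3. The value of -1.59 rests on 1 spot, because the other spot, at -1.07, was left out by its flag. The Low goat was not above background on either of these arrays, whereas the High goat was above it on both, so the Low level there is only a bound. The range over the pairs was 1.09 in the pair means and 1.03 with the dye term. The moderated F-test between pairs did not pass over all probes (F = 12.5, limma adjusted p = 0.344). It passed the threshold without pair 1 (range 1.03, limma adjusted p = 0.00116) and without the first array of that pair (Low in Cy5), which had no JCHAIN value (limma adjusted p = 2.20e-04). The first of these fits set pair 2 against the undetected Low goat of pair 3. The second kept pair 1 and the same JCHAIN values as the main fit, while the probes called in all rose from 12 to 44. Neither shows a measured difference, because the Low goat of pair 3 was not above background. With the background subtracted in place of normexp, the pair 3 ratio was -3.56 and the mean -1.60. Goat levels were 6.76, 7.05 and 6.31 in Low, against 6.86, 7.20 and 7.49 in High, and the groups overlapped. Goat levels of Low and High did not overlap for 1.46% of all probes kept, and for 0 of these 4 genes.

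JCHAIN was the one gene of the 4 on the chromosome of CSN1S1 in the goat assembly ARS1.2, with 9 protein-coding genes between them. Of those, 3 were measured under a single symbol, namely CSN1S2 (alpha-s2-casein) at -0.07 ± 0.17, CSN3 (kappa-casein) at 0.19 ± 0.44 by its brighter probe, and AMBN (ameloblastin) at -0.09 ± 0.23 (SD, n = 3 pairs). None of these passed the limma test.

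LTF, LPO and PIGR did not share a pattern over the pairs. LTF and PIGR both stood highest in pair 1 and lowest in pair 3, but over a range of 1.37 for LTF and 0.154 for PIGR. LPO was highest in pair 2. JCHAIN, whose signal was at background in the Low goat of pair 3, cannot be ordered over the pairs in the same way.

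Across the 6 goats, levels of the 4 genes were correlated in 6 combinations, of which 0 had an exact permutation p below 0.05. The closest relation was negative, between LPO and PIGR, at r = -0.77 (exact two-sided permutation p = 0.0583, adjusted over 6 combinations 0.350). Its rho was -0.83 (exact permutation p = 0.0583, adjusted 0.350). Without the 2 goats farthest from the LPO median, r was -0.99. It was -0.30 when channels were scaled by their median only. LTF and LPO had r = 0.59 (exact permutation p = 0.242, adjusted 0.696) and rho = 0.54 (p = 0.297, adjusted 0.892), with r = 0.14 without the 2 farthest goats. PIGR and JCHAIN had r = 0.15 (exact permutation p = 0.753, adjusted 0.803) and rho = -0.09 (p = 0.919, adjusted 1), with r = -0.83 without the 2 farthest goats. LPO and JCHAIN had r = -0.38 (exact permutation p = 0.464, adjusted 0.696), which turned to 0.99 without 2 goats. LTF had r = -0.41 with PIGR (-0.16 without 2 goats) and r = -0.13 with JCHAIN (-0.61 without 2 goats). Leaving out 2 goats thus changed the size of these relations, and the sign for JCHAIN with LPO and with PIGR. So few goats were left that this cannot say on which goats a relation rests. The goats of a pair shared their arrays, so the 6 values are not fully independent. With pair 3 the lowest for PIGR and highest for LPO in both genotypes, the array cannot be told apart from the goats in this relation.

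A dye effect lay under the single-array values of LTF, LPO and PIGR. The ratio with Low in Cy5 minus that with Low in Cy3 was -0.76 for LTF, -0.46 for LPO, -0.36 for PIGR and -0.27 for JCHAIN in the common dye term. The median absolute value of this term over all probes was 0.217. For LTF, LPO and PIGR, every pair was lower with Low in Cy5 than with Low in Cy3. JCHAIN was higher with Low in Cy5 in pair 2 (-0.03 against -0.28) and lower in pair 3 (-1.59 against -0.78). No dye effect can thus be read from its term. The swap cancels the effect in the pair means, apart from pair 1 of JCHAIN.

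Among the other defence genes measured, none was called in either test. Of 15 measured antimicrobial and defence proteins, 0 rose, 0 fell and 15 did not pass (0 with an unadjusted limma p below 0.05), and 9 lay above 0. Their median ratio was 0.04, against -0.00045 over all probes. LTF had the highest ratio of the list. TF (transferrin, the iron carrier of plasma) had the lowest at -0.12 ± 0.10, and SLPI, a secreted protease inhibitor and the most intense, was at 0.01 ± 0.05 (SD, n = 3 pairs). Between the pairs, LTF was the only 1 of these 15 that the F-test called. SLPI had the pair order of LTF over a range of 0.108 (0.07, 3.4e-05 and -0.04 in pairs 1, 2 and 3). So did CHI3L1 over a range of 0.085 (0.041, -0.040 and -0.044), while the rest of the list did not.

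Of 8 measured antibody and antibody transport genes, 0 passed (0 with an unadjusted limma p below 0.05) and 3 lay above 0, with a median of -0.02. JCHAIN had the lowest ratio. FCGRT, the neonatal Fc receptor that binds and recycles IgG, had the highest ratio and was the most intense, at 0.07 ± 0.03 (SD, n = 3 pairs). Of 8 measured genes of transcytosis, the passage of vesicles through the cell, 0 passed (1 with an unadjusted limma p below 0.05), with a median of -0.04. They ranged from -0.20 ± 0.12 for MYO5B, a motor of recycling endosomes, to 0.07 ± 0.07 for RAB17, an epithelial trafficking GTPase. VAMP8, a vesicle fusion protein and the most intense, was at 0.04 ± 0.07.

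The lists of signals and responses stayed near 0 in their medians. Of 13 interferon and NF-kB genes, 0 passed (0 with an unadjusted limma p below 0.05), with a median of -0.01. CHUK, a kinase of the NF-kB pathway, was lowest at -0.11 ± 0.26, NFKBIA, its inhibitor protein, highest at 0.05 ± 0.04, and SOCS3, a cytokine signal inhibitor and the most intense, was at 0.01 ± 0.05. Of 12 involution and acute phase genes, 0 passed (0 with an unadjusted limma p below 0.05), with a median of 0.0026. IGFBP5, which binds insulin-like growth factor, was lowest at -0.13 ± 0.13 and BCL2L1, a survival factor, highest at 0.07 ± 0.05. STAT3, a transcription factor of involution and the most intense of the list, was at -0.11, 0.46 and -0.56 in pairs 1, 2 and 3, with a limma adjusted p of 0.139 between the pairs. Of 6 iron handling genes 0 passed (1 with an unadjusted limma p below 0.05), with a median of 0.0029. HFE, the most intense, was at -0.03 ± 0.03.

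**Figure D4:**
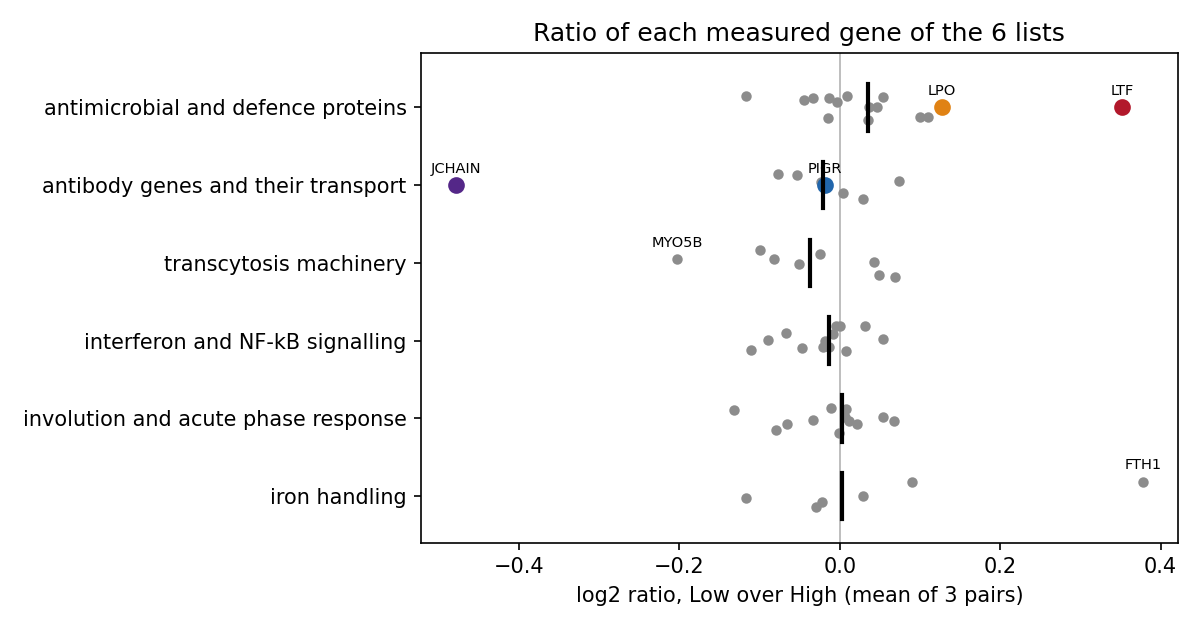
Log2 ratio of Low over High (x axis, mean of 3 pairs) for each measured gene of 6 gene lists (rows), with bars at the list medians. Medians lie between -0.04 and 0.04, while LTF (0.35), FTH1 (0.38) and JCHAIN (-0.48) lie far to either side.

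FTH1, the heavy chain of the iron store ferritin, had the highest ratio of the iron list, at 0.54, 0.44 and 0.15 in pairs 1, 2 and 3 (mean 0.38 ± 0.21; limma adjusted p = 0.457). It was also among the 3 named genes closest to LTF in the root mean square difference of the 6 array ratios. These were GNAI1 (a G protein subunit) at 0.385, FTH1 at 0.427 and ECRG4 at 0.475, against a median of 0.792 over 4721 probes. Closest to LPO were OTUB2 (a deubiquitinating enzyme) at 0.0484, RPL31 (a ribosomal protein) at 0.102 and SSR3 (a subunit of the translocon complex) at 0.104. Closest to JCHAIN, over 5 arrays, were ADHFE1 (an alcohol dehydrogenase of mitochondria) at 0.254, PPP1R14B (a phosphatase inhibitor) at 0.307 and CYB5R3 (a cytochrome b5 reductase) at 0.377. PIGR had a range below the median of all probes and was not compared in this way.

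Of the cell type markers, 0 passed the limma test between the genotypes. Of 12 plasma cell markers 3 were measured. MZB1, a chaperone of antibody assembly and the most intense, was at 0.0041 ± 0.02, and IGHG1, an antibody heavy chain, at -0.08 ± 0.09 (SD, n = 3 pairs). In pair 3, where JCHAIN was at -1.18, MZB1 was at 0.02 and IGHG1 at -0.17. The summed level of the 3 markers, in normalized intensity units, ran from 6105 to 7744 in Low goats and from 6229 to 7707 in High goats. MZB1 (mean log2 intensity 12.1, the next marker 10.7) makes up most of it. Of 10 B cell markers 2 were measured. CD79A, part of the B cell receptor, was at -0.19 ± 0.09 (limma adjusted p = 0.694) and was the 1 of these below 0.05 unadjusted. The other, CD40, was at -0.00092 ± 0.10 (SD, n = 3 pairs).

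Of the 9 luminal epithelial markers 7 lay above 0 (1 with an unadjusted limma p below 0.05). CSN3, the most intense, had the highest ratio at 0.19 ± 0.44, and LALBA (alpha-lactalbumin, of the lactose synthase) the lowest at -0.19 ± 0.28. Their summed level ran from 44171 to 57345 in Low goats and from 43387 to 64822 in High goats. All 5 myoepithelial markers measured, of 10, lay above 0 (2 with an unadjusted limma p below 0.05), with KRT17, a keratin, at 0.23 ± 0.09 (limma adjusted p = 0.515). ACTA2, the most intense, was lowest at 0.02 ± 0.14. Over all 6378 probes kept the median ratio was -0.00045, and 344 had an unadjusted limma p below 0.05. Of 3 endothelial, 2 fibroblast and 1 red blood cell marker measured, 0 had an unadjusted limma p below 0.05.

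Neutrophils carry lactoferrin in their granules, and 5 of 16 of their markers were measured. Their ratios lay between -0.03 and 0.05, and their summed level ran from 6299 to 8177 in Low goats and from 6539 to 8067 in High goats. In pair 1 it was 8177 in the Low goat and 8046 in the High goat, where LTF differed 2.10-fold. This sum rests most on ITGB2, the most intense of these markers (mean log2 intensity 11.7, the next marker 10.8). It was lowest in pair 2 in both genotypes, as were LTF and the sums of the plasma cell, macrophage and leukocyte markers. So were the sums of the defence, antibody and interferon lists, while the transcytosis sum was highest there. The defence list holds LTF itself and several of the neutrophil markers. The goats of a pair shared their arrays, so array and goats cannot be told apart here. For macrophages (8 of 12 measured, median 0.01) and T cells (4 of 15, median 0.05), 0 markers had an unadjusted limma p below 0.05. The most intense were C1QC for macrophages and CD3E for T cells.

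Of 7 leukocyte markers measured, of 11, 0 passed (1 with an unadjusted limma p below 0.05), with a median of 0.0064. LAPTM5, a lysosomal membrane protein of blood cells, had the lowest ratio at 0.11, -0.51 and -0.80 in pairs 1, 2 and 3 (limma adjusted p = 0.896), was the 1 marker below 0.05 unadjusted, and was lowest in pair 3, as was JCHAIN. BOLA-DRA, an MHC class II chain, was at 0.46, 0.03 and -0.22, the pair order of LTF (limma adjusted p = 0.347 between the pairs). BOLA-DMA, which loads peptides onto MHC class II and was the most intense, was at 0.24, 0.0022 and -0.01, in that order too. LAPTM5 had this order as well, while the other leukocyte markers measured did not. CD53 was at -0.07, -0.01 and 0.01, and CORO1A at -0.03, -0.05 and 0.03. LCP1 was at 0.02, 0.11 and -0.11, and CD74 at 0.17, 0.0079 and 0.10. The summed leukocyte level was 22906, 18919 and 19439 in the Low goats of pairs 1, 2 and 3, against 19937, 18935 and 19599 in the High goats. This sum was highest in the Low goat of pair 1, where LTF had its highest ratio. BOLA-DMA (mean log2 intensity 13.7, the next marker 11.7) makes up most of it, so it largely repeats that 1 probe. The part of these cells in the LTF and JCHAIN ratios was not tested.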

How the data were processed

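The members and gene lists were chosen with earlier results of these data known. The authors quantified spot and local background intensity with ImaGene 6.0, per the labels, and deposited 1 file per channel. The deposited background SD is a signal on that same scale. Log2 ratios per spot were also deposited by the authors; these correlated with the scanner ratios of Low over High at r between 0.989 and 0.998 over bright spots, so scale and direction are settled, while centring is unknown (column medians -0.0135 to 0.0205). Dye and goat in the header matched the labels in 12 of 12 files. The file headers carry 2 dates: both arrays of pair 1 on one, both of pair 2 on the other, and 1 array of pair 3 on each.

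Background was corrected with normexp (offset 50) and ratios by global loess in limma 3.58.1 (R 4.3.3), with control spots at weight 0 and spots flagged manual or empty set to missing; saturated spots were kept. Duplicate spots were averaged before the arrays of each pair. A probe passed the filter if, in Low in every pair or in High in every pair, 1 spot on at least 1 array lay over the background mean by more than 2 SDs. The filter's planned wording (either channel, 1 array or more in each pair) left open how many spots and whether the channel may change; 12 readings were computed, keeping 5791 to 6528 probes, and this one was chosen because it gave the 6378 probes known from an earlier analysis of these data, not on its own merit. The most literal reading, either channel on each array, keeps 6528. Ratios were tested against 0 with lmFit and eBayes, and pairs against each other by a moderated F-test with a dye term, both with Benjamini-Hochberg adjustment over all probes (threshold 0.05) and 95% intervals. Goat levels used Aquantile scaling between arrays, and exact permutation tests used scipy 1.17.1. A gene with several probes was represented by the most intense. The number of arrays limits the precision. Named genes were the 4 members, CSN1S1, the highest, lowest and most intense gene of each list, the most intense cell type markers, and the 3 closest patterns for members with a range above the median. Genes outside this rule are SPP1, BTNL9, NFE2L1, the genes next to JCHAIN, IGHG1, BOLA-DRA, CD53, CORO1A, LCP1, CD74 and CHI3L1. Of 8379 probes, 6840 had 1 symbol, 93 several and 1446 none, from an old platform annotation, and how well each probe matches the goat transcript is not given in the sources used here; assembly ARS1.2 was used for gene order only.

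On simulated data (20 sets of 6224 probes), the F-test found 91.1% of 1.5-fold differences of 1 pair and 19.5% of 1.25-fold ones; the test of Low over High found 99.7% and 94.2%. Of the calls, 8.91% (F-test) and 7.23% (Low over High) were false, both above the threshold of 0.05. The standard error of the ratio was 0.234 for LTF and 0.209 for JCHAIN, against a median of 0.0502 over all probes. The shares found by the test of Low over High therefore do not carry over to these 2 genes.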

Additional observations from a re-analysis of the deposited data

How the results depend on the processing

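The ratios of Low over High passed the threshold for 0 of the 4 genes in any of the 28 settings tried (21 for JCHAIN, which stricter filters left out). JCHAIN stayed below 0 in all 21, from -1.60 to -0.13. The probe was kept through its High signal alone, so this constant sign supports nothing. LTF ran from -0.03 to 0.73: it turned to -0.030 with Low in Cy5 only, and leaving out a pair gave -0.0058 to 0.68. LPO turned to -0.10 with Low in Cy5 only. PIGR turned to 0.0125 with loess within each sub-grid and to 0.16 with Low in Cy3 only, and leaving out a pair gave -0.0591 to 0.0178. Over all probes the count called, 6, became 0 with the background subtracted, 10 with median centring or with all spots kept, 1 without the filter, 15 with a trended, robust variance, 33 with the pair as a random block, 869 and 375 with Low in Cy5 or Cy3 only, 2 and 1 with only the first or second spot, and 1 to 23 without a pair.

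The reading of the filter on dim probes was chosen, among 12 computed, for its match to an earlier count, and the other readings were added after seeing the data. The 10 that keep other probes than the one used called 2 to 17 probes for Low over High, among them 2 for the most literal reading (either channel on each array, 1 spot), 12 for both spots in either channel and 17 for both spots in the same channel. JCHAIN was left out under 6 of the 12 readings. LTF was called between the pairs under all 12 (limma adjusted p of 0.00518 to 0.0100), as were 12 to 14 probes in all.

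The LTF difference between pairs kept a limma adjusted p under 0.05 in 22 of 31 settings, 10 of which are filter readings. It did not pass with the background subtracted (range 1.66, limma adjusted p = 0.533), loess within each sub-grid (1.35), the deposited ratios (1.42), no dye term (1.37, limma adjusted p of 1, where dye stays in the error) or the header date as a covariate (1.35, limma adjusted p = 0.0578, chosen after seeing the data). Leaving out a pair or an array gave ranges of 0.59 to 1.56, and the call was also lost without either array of pair 3 (1.35 and 1.39, limma adjusted p of 0.0937 and 0.0930). The JCHAIN range was 1.03 in both fits without pair 1 or its array with Low in Cy5, where it passed although the Low goat of pair 3 was not above background; other omissions gave no JCHAIN value or no test. LPO and PIGR were not called in any of 31. The count of 12 probes became 0 with the background subtracted or without a dye term, 19 with median centring, 6 with the deposited ratios, 22 with a trended, robust variance, 36, 21 and 4 without pair 1, 2 or 3, and 8 to 55 without an array (44 and 28 without the arrays of pair 1). The LTF and PIGR correlation turned to 0.25 with median scaling. The causes were not tested. JCHAIN is limited by its low signal over background. Every ratio is already paired, since each array holds both goats of a pair.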
